A study of Mus musculus with 80 samples.

Results

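FACSAria-Input was compared with Cell-Input to show what a cytometer-based sort for CD11b, CD45 and eGFP changed in the RNA of dissociated mouse brain. The comparison was defined by the sort labels of the Input libraries and took all genes of the sort-comparison table, so it used 8 of the 80 libraries of the series and of the 48 in that table, with 4 per group. All 8 mice were Cx3cr1(Jung)-cre/Ert2+;NuTRAP+ and had received tamoxifen at about 3 months of age (100 mg/kg, intraperitoneal, daily), so no group lacked Cre or tamoxifen. Cell-Input (mice 946, 947, 948 and 949) was RNA from the suspension of 1 brain hemisphere after papain digestion, mechanical dissociation and debris removal, with no sort. FACSAria-Input (mice 69, 945, 991 and 992) was RNA from CD11b+CD45+eGFP+ cells that a FACSAria flow cytometer sorted from such a suspension. Input is the lysate before translating ribosome affinity purification (TRAP), in which an eGFP-tagged ribosomal protein is pulled down. Values below are CPM (counts relative to the library total), scaled by the trimmed mean of M values (TMM), and are given in the order of mice just listed, or as the range of Cell-Input against that of FACSAria-Input. No mouse gave both a Cell-Input and a FACSAria-Input library, and any difference in preparation day between the mice cannot be told apart from the sort.

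The Cx3cr1 promoter drives the Cre of this line, so the reporter labels microglia together with other Cx3cr1-expressing cells, among them the macrophages of brain borders and, soon after tamoxifen, circulating myeloid cells. By the study's methods, tissue was taken months after the last dose so that labelled circulating cells had time to turn over. No perfusion step is given in the sources used here. Itgam encodes CD11b, Ptprc encodes CD45 and Cx3cr1 drives the Cre that activates the reporter, so these 3 genes are called gate genes here. The eGFP comes from the recombined NuTRAP allele, so Cx3cr1 RNA does not measure it directly.

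Microglia are the resident macrophages of the brain parenchyma. They depend on signalling through Csf1r and TGF-beta and on the transcription factor PU.1 to keep their identity, and they survey tissue with purinergic receptors, clear debris through phagocytic receptors and lysosomes, and respond to danger signals through Toll-like receptors. They are a minority of the cells of a brain suspension, beside astrocytes, oligodendrocytes, neurons and vascular cells, so an unsorted suspension holds the RNA of all of these. In such bulk RNA, fewer cells of a type and less RNA per cell cannot be told apart.

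PU.1 binds purine-rich ETS-family sequences, and 3 promoters of genes that were higher in FACSAria-Input are printed here because each holds 1 copy of the ETS-type core AGGAAGT in the bases before the gene's start. Each is 250 bases from RefSeq (build GRCm38.p6), written 5′ to 3′ on the gene's strand and ending just before the annotated start, with the core in capitals. ACTTCCT is the same core on the other strand. Fcrls is an Fc receptor-like gene of microglia (chr3:87263525-87263774, minus strand), P2ry12 is the ADP receptor of microglial processes (chr3:59262986-59263235, minus strand) and Gpr84 is a receptor for medium-chain fatty acids (chr15:103310439-103310688, minus strand).
Fcrls: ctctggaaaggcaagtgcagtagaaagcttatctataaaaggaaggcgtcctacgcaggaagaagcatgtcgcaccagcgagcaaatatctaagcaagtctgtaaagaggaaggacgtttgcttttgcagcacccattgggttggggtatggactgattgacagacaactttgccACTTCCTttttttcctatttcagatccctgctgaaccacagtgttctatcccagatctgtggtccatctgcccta
P2ry12: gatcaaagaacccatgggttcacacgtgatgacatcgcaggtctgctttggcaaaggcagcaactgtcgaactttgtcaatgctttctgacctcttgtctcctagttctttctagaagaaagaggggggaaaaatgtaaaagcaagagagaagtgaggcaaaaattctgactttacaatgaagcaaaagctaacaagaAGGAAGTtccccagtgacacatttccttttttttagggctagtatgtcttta
Gpr84: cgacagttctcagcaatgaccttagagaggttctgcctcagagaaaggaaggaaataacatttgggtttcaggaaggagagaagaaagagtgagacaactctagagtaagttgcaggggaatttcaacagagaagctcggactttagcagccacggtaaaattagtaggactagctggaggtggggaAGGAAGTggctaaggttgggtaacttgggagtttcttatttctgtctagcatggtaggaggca
The core begins 75, 52 and 63 bases before the start in Fcrls, P2ry12 and Gpr84. On either strand of such 250-base windows, AGGAAGT was present in 302 of 2660 promoters of genes called higher (11.4%; 2120 of the 2664 genes matched), 261 of 5030 promoters of genes called lower (5.19%), 518 of 7442 of genes not called (6.96%) and 2525 of all 32851 RefSeq promoters (7.69%). These are matches of letters, with no measure of binding.

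Depth ranged from 12940459 to 16332332 expected counts in Cell-Input and from 8738297 to 11367400 in FACSAria-Input. On a principal component analysis of the 8 libraries, component 1 held 94.4% of the variance and separated the groups. The FACSAria-Input library of mouse 991 lay nearer to Cell-Input on that component (score 93.7) than the other 3 (127 to 129), so values that moved by over 1.5 times on leaving it out are also given without it.

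Of 15096 genes tested, 2664 were higher (17.6%) and 5047 were lower (33.4%) in FACSAria-Input (edgeR quasi-likelihood test, Benjamini-Hochberg adjusted p under 0.1 and a change over 2-fold, the rule for every call below). Among the genes that rose, 978 did so by over 4-fold and 157 by over 8-fold, with a median log2 fold change of 1.67. Among those that fell, 4041 did so by over 4-fold and 1573 by over 32-fold, with a median of -3.97, and 922 of them had 3 counts or fewer in every FACSAria-Input library. The libraries of the groups did not overlap for 11479 genes (76.0%), so a lack of overlap alone sets few genes apart. The median over all genes tested was -0.07 with TMM and -0.30 with size factors, a shift of -0.23 that turned the calls into 2045 higher and 5439 lower. Without mouse 991, 2752 genes were higher and 5031 lower.

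The gate genes rose together. Itgam (chr7:128062640-128118491, GRCm38.p6) held 285, 349.8, 342 and 332 CPM in Cell-Input and 2698, 2329, 2373 and 2576 CPM in FACSAria-Input (log2 fold change 2.93, SE 0.14, adjusted p = 5.51e-13). Ptprc (chr1:138062859-138175305) held 61.5, 69.5, 74.5 and 69.8 CPM and 492, 465, 455 and 504 CPM (log2 fold change 2.80, SE 0.09, adjusted p = 1.16e-14). Cx3cr1 (chr9:120048683-120068296), the fractalkine receptor, held 396, 517, 565 and 494 CPM and 3949, 4162, 3851 and 3728 CPM (log2 fold change 2.99, SE 0.15, adjusted p = 8.62e-13). All 4 sorted libraries lay far above all 4 unsorted ones for each of these genes, with little spread within the sorted group, and mouse 991 was not apart here. Their summed level in FACSAria-Input was 7.51 to 8.03 times the mean of Cell-Input.

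All 13 tested lineage transcription factors rose, with a median log2 fold change of 2.57 against -0.07 over all genes. Sfpi1, which encodes PU.1, held 45.99, 58.5, 60.96 and 61.1 CPM in Cell-Input and 418, 468, 409.7 and 379.6 CPM in FACSAria-Input (log2 fold change 2.89, SE 0.13, adjusted p = 1.81e-13). Irf8, a partner of PU.1 in myeloid cells, rose from 96.4, 92.9, 110.3 and 108 CPM to 666, 782, 687 and 685 CPM (log2 fold change 2.79, SE 0.10, adjusted p = 1.37e-14). Sall1, a zinc-finger factor that in the brain marks microglia among macrophages, went from 188, 245, 256 and 220.1 CPM to 1378, 1504, 1327 and 1160.1 CPM (log2 fold change 2.56, SE 0.14, adjusted p = 5.32e-12). For each of the 3 genes the lowest sorted library was several times the highest unsorted one. Mef2c, a factor shared with neurons, rose as well (76.9 to 91.6 against 499 to 571 CPM, log2 fold change 2.65, adjusted p = 1.26e-14). Tfec, a macrophage factor of low count, had the smallest counts of the group (0.170 to 0.486 against 0.494 to 2.11 CPM, log2 fold change 1.99, adjusted p = 0.00466).

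All 20 homeostatic microglial genes rose (median 2.66). Gpr34, a lysophosphatidylserine receptor, held 146, 200.0, 232 and 200.5 CPM in Cell-Input and 1545, 1528, 1289 and 1541 CPM in FACSAria-Input (log2 fold change 2.92, SE 0.15, adjusted p = 1.57e-12). Fcrls, whose promoter is printed above, held 281, 351, 393 and 387 CPM and 2779.6, 2298, 2098 and 2421 CPM (log2 fold change 2.76, SE 0.17, adjusted p = 1.29e-11). Mouse 991 was the lowest of the sorted libraries for both, and still above every unsorted one. Sparc, a matrix glycoprotein that astrocytes and endothelial cells also make, had the smallest rise of the list (1522 to 2259 against 4772 to 5226 CPM, log2 fold change 1.35, SE 0.13, adjusted p = 1.88e-08). The largest was that of P2ry13, an ADP receptor (122 to 190.2 against 1341 to 1756 CPM, log2 fold change 3.25, adjusted p = 1.29e-09), and its neighbour on the chromosome P2ry12 followed (360.5 to 508 against 3385 to 3857 CPM, log2 fold change 3.00, adjusted p = 1.11e-10).

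**Figure D1:**
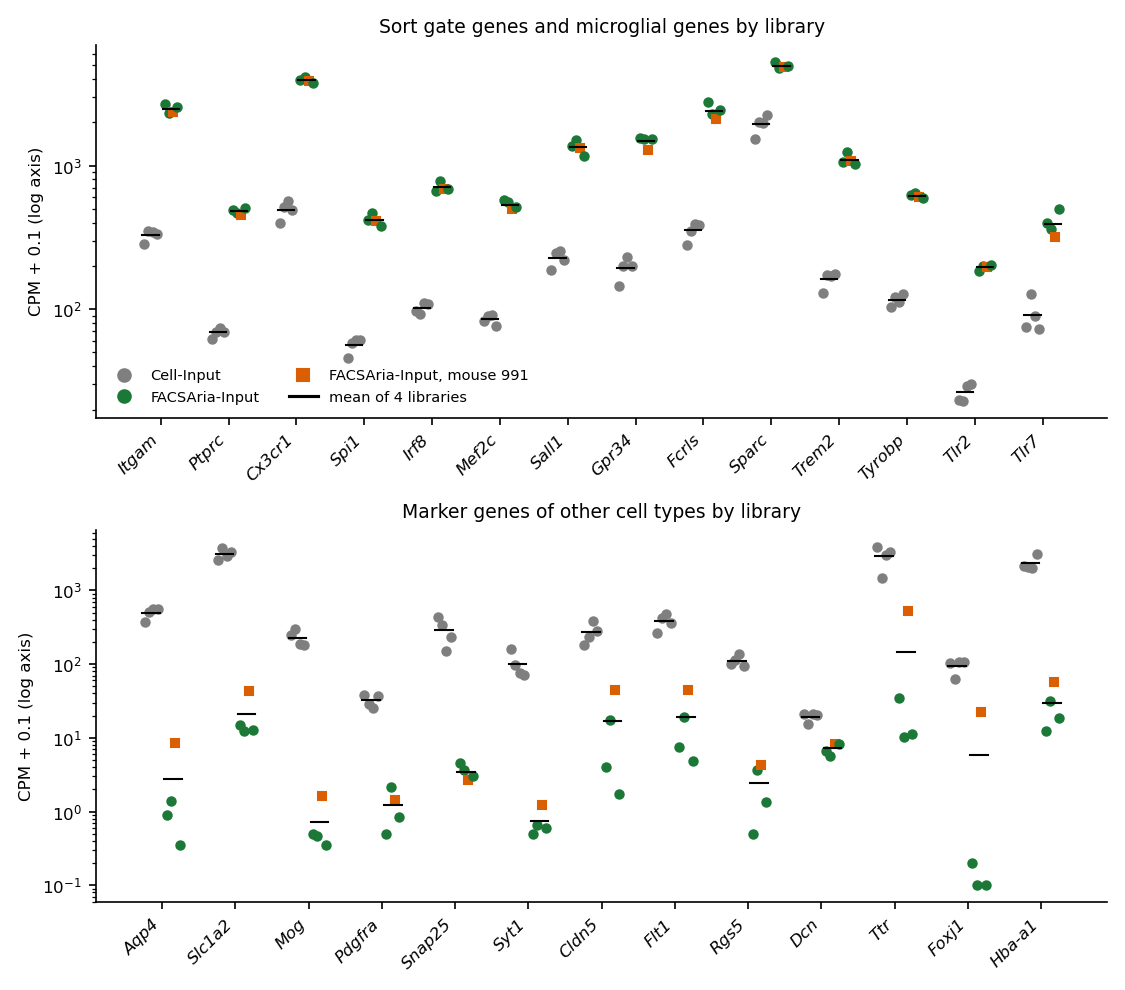
CPM + 0.1 on a log axis for each of the 8 libraries, for gate and microglial genes (upper panel) and markers of other cell types (lower panel). Grey points are Cell-Input, green points FACSAria-Input, orange squares FACSAria-Input of mouse 991 and bars the mean of 4 libraries; Spi1 is the current symbol of Sfpi1. The groups are separate for each gene drawn. In the lower panel the orange square is the highest sorted library for Aqp4, Slc1a2, Mog, Syt1, Cldn5, Flt1, Rgs5, Ttr, Foxj1 and Hba-a1. It is not the highest for Pdgfra or Snap25.

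Receptors for nucleotides and chemoattractants rose in 10 of 11 cases (median 2.59). The exception was Cxcr4, a CXCL12 receptor, at 10.6 to 20.9 against 8.99 to 18.8 CPM (log2 fold change -0.30, adjusted p = 0.337). P2ry6, a UDP receptor tied to phagocytosis, rose (38.5 to 53 against 273 to 291 CPM, log2 fold change 2.59, SE 0.17, adjusted p = 6.35e-11), as did P2rx7, an ATP-gated channel (59.1 to 73.9 against 254 to 321 CPM, log2 fold change 2.08, adjusted p = 6.18e-12). Entpd1, the ectonucleotidase CD39, rose too (168 to 246 against 949 to 998 CPM, log2 fold change 2.23, adjusted p = 2.27e-08). None of these 3 overlapped between groups.

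Of 13 phagocytic receptor genes, 10 rose, 1 fell and 2 were not called (median 2.04). Trem2, a lipid receptor, held 129.9, 173, 171 and 176 CPM in Cell-Input and 1055, 1235, 1079.8 and 1018 CPM in FACSAria-Input (log2 fold change 2.75, SE 0.13, adjusted p = 4.69e-13), and its signalling adaptor Tyrobp held 103, 122, 112 and 127 CPM and 627, 642, 600.0 and 597 CPM (log2 fold change 2.41, SE 0.11, adjusted p = 2.68e-13). Both genes showed a narrow sorted group well above the unsorted one. The 3 TAM receptor kinases, which recognise dying cells, parted from each other. Mertk rose (186 to 275 against 698 to 869 CPM, log2 fold change 1.79, SE 0.24, adjusted p = 1.73e-06). Axl held 128, 164, 153 and 162 CPM and 82.8, 94.5, 181 and 133 CPM, with overlapping groups and mouse 991 highest (log2 fold change -0.31, SE 0.28, adjusted p = 0.334). Tyro3, which neurons and oligodendrocytes use, fell from 149, 160.4, 116 and 108 CPM to 0.395, 0, 2.46 and 0 CPM (log2 fold change -7.45, SE 0.59, adjusted p = 7.32e-10), so that every sorted library held under 3 CPM of it, and at -9.82 without mouse 991. The TAM ligand gene Gas6 was not called (206 to 266 against 252 to 337 CPM, log2 fold change 0.34).

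Complement genes rose in 9 of 12 cases (median 2.42). C1qa, a chain of the first component, held 583, 713, 713 and 720.1 CPM and 3733, 3649, 3642 and 3786 CPM (log2 fold change 2.44, SE 0.09, adjusted p = 3.85e-14), with the sorted libraries within a narrow range. C3, the central component, held 10.3, 9.53, 9.04 and 7.72 CPM and 88.4, 25.2, 31.5 and 37.4 CPM (log2 fold change 2.32, SE 0.43, adjusted p = 7.18e-05), and mouse 69 was the highest. C4b, of the classical pathway, was not called and its groups overlapped (58.05 to 93.6 against 83.4 to 143 CPM, log2 fold change 0.63, adjusted p = 0.0150). Serping1, the C1 inhibitor gene, ran against its list and fell (14.5 to 20.3 against 2.60 to 6.52 CPM, log2 fold change -1.99, SE 0.54, adjusted p = 0.00262). Cfp, the properdin gene, was not called (log2 fold change 0.44).

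Among 18 Toll-like receptor and adaptor genes, 17 rose (median 2.57). Tlr2, for bacterial lipopeptides, held 23.3, 22.95, 28.97 and 30.2 CPM and 184, 201, 196 and 204 CPM (log2 fold change 2.89, SE 0.10, adjusted p = 1.37e-14). Tlr4, for lipopolysaccharide, rose (22.5 to 30.7 against 100.1 to 125 CPM, log2 fold change 2.07, adjusted p = 3.63e-08), as did Tlr7, for single-stranded RNA (72.8 to 128 against 320.1 to 496 CPM, log2 fold change 2.11, adjusted p = 1.33e-06). Tlr3, the double-stranded RNA receptor that astrocytes also use, had no overlap between groups and a change under 2-fold (57.4 to 87.6 against 109 to 138 CPM, log2 fold change 0.76, SE 0.12, adjusted p = 1.41e-05). Cd180, a relative of Tlr4 without a signalling domain, had the largest rise of the list at 24.9, 22.6, 30.3 and 24.5 CPM against 345, 444, 338 and 263 CPM (log2 fold change 3.76, SE 0.38, adjusted p = 2.37e-08).

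Of 9 Fc receptor and costimulatory genes, 8 rose (median 2.42) and Cd40 was not called at 1.00 to 2.05 against 1.13 to 1.98 CPM. The activating receptors Fcgr1 (61.5 to 76.6 against 409 to 537 CPM, log2 fold change 2.81, adjusted p = 2.14e-12) and Fcgr3 (142 to 196 against 890.1 to 1069 CPM, log2 fold change 2.50, adjusted p = 4.07e-11), their shared gamma chain Fcer1g (59.6 to 68.7 against 327 to 371 CPM, log2 fold change 2.42, adjusted p = 2.98e-13) and Cd86, a T-cell costimulator (34.5 to 43.2 against 248 to 277 CPM, log2 fold change 2.73, adjusted p = 4.43e-13), were each separate between groups.

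All 14 tested MHC and antigen presentation genes rose, with a smaller median (1.76) than the microglial lists above. Fewer passed in other settings, with 11 higher with size factors, 10 with limma on the deposited log2 values and 12 without mouse 991. H2-Aa, a class II chain, held 72.7, 34.3, 42.7 and 38.5 CPM in Cell-Input and 103, 183, 209.5 and 211 CPM in FACSAria-Input (log2 fold change 1.91, SE 0.33, adjusted p = 3.04e-05). Its chaperone gene Cd74 held 212, 109, 128 and 117 CPM and 309.8, 506, 571 and 582 CPM (log2 fold change 1.80, SE 0.29, adjusted p = 1.46e-05). For both, mouse 946 was the highest unsorted library and mouse 69 the lowest sorted one. The class I light chain B2m rose (356 to 422 against 1301 to 1482 CPM, log2 fold change 1.85, adjusted p = 1.13e-10). H2-K1, a class I heavy chain, was near the 2-fold limit (219 to 286 against 447 to 593 CPM, log2 fold change 1.06, SE 0.12, adjusted p = 1.79e-07) and was not called without mouse 991 (log2 fold change 0.98).

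Lysosomal genes rose in 18 of 21 cases (median 2.12). With limma on the deposited log2 values, or with at least 10 counts in every sample, 15 were called higher. Ctss, a cysteine cathepsin of antigen-presenting cells, held 911, 1104, 1049.5 and 1066 CPM and 5743, 5903, 5787 and 6209.5 CPM (log2 fold change 2.52, SE 0.10, adjusted p = 7.09e-14). The aspartic cathepsin Ctsd held 1988, 2351, 2494 and 2544 CPM and 9749, 9968, 10204 and 10859.5 CPM (log2 fold change 2.12, SE 0.11, adjusted p = 1.68e-12). Neither gene spread by much within a group. Ctsl, another cathepsin (269 to 332 against 984 to 1135 CPM, log2 fold change 1.79, adjusted p = 9.60e-12), and Lgmn, the asparaginyl endopeptidase (591 to 748 against 4149.8 to 4439 CPM, log2 fold change 2.62, adjusted p = 6.12e-13), rose too. The 3 members not called are used by cells of many types: Lamp1 (log2 fold change 0.65), Cd63 (0.26) and Tfeb (0.81).

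**Figure D2:**
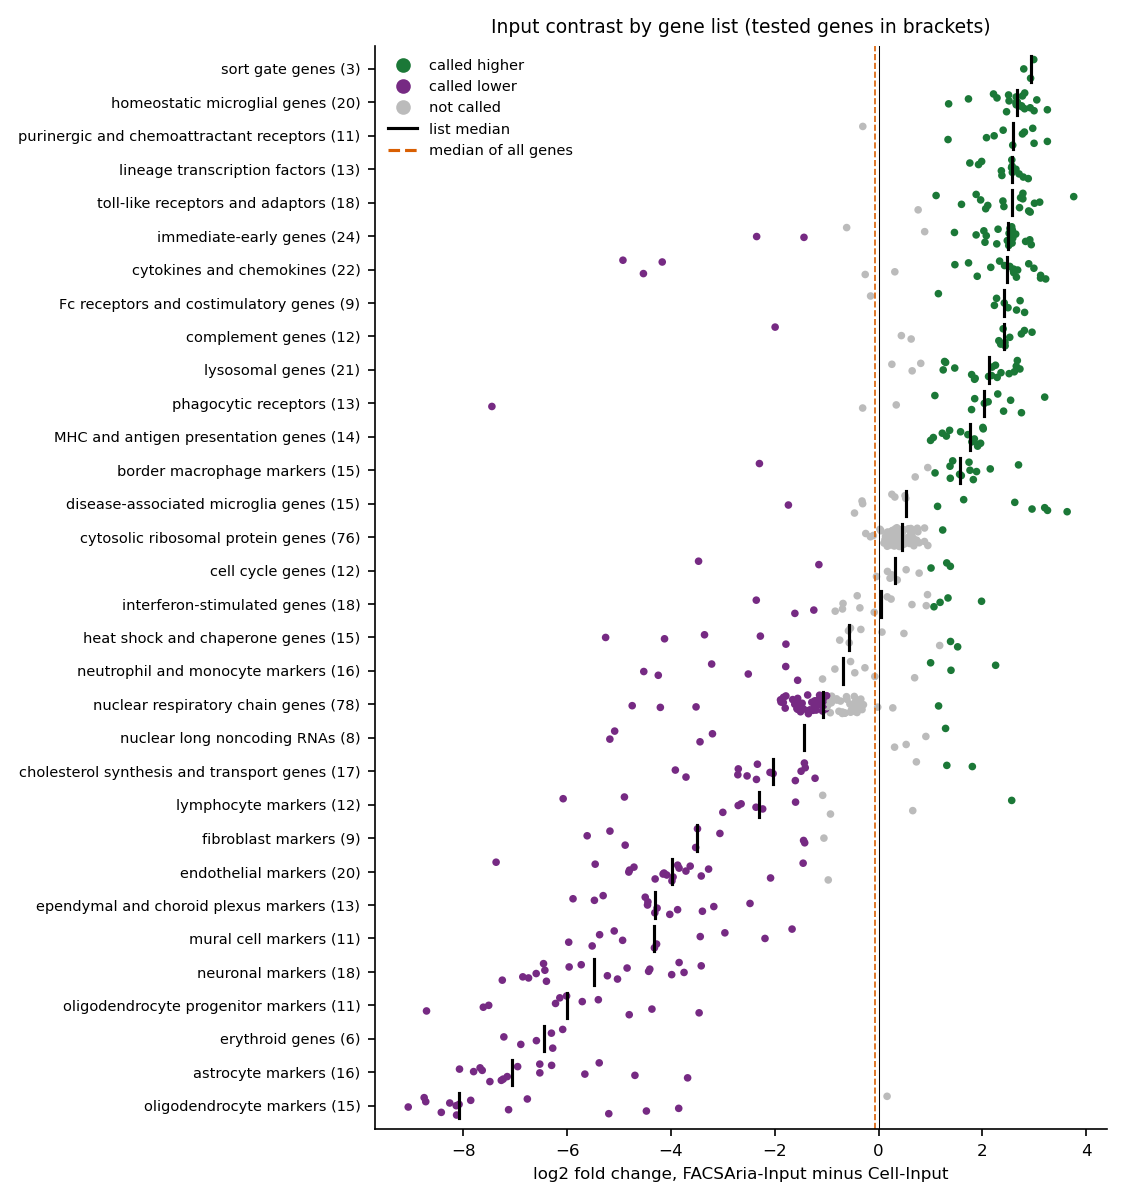
Log2 fold change of every tested gene of each list, FACSAria-Input minus Cell-Input, with the number of tested genes in brackets. Green points were called higher, violet points lower and grey points not called; black bars are list medians and the dashed line is the median of all genes (-0.07). Medians of the lists drawn, which leave out the hepatocyte, adipocyte and muscle genes, run from 2.93 for the gate genes to -8.08 for oligodendrocyte markers.

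Disease-associated microglia genes, a set known from microglia around damaged or amyloid-laden tissue, did not move as a block. Of 15, 7 rose, 1 fell and 7 were not called (median 0.52), against 17.6% higher and 33.4% lower over all genes. Apoe, a lipid carrier that astrocytes make in large amounts, held 3852, 4172, 4316 and 4581 CPM in Cell-Input and 2224, 2575, 3786 and 3688 CPM in FACSAria-Input (log2 fold change -0.46, SE 0.20, adjusted p = 0.0413). Its groups did not overlap, with the sorted one lower by less than 2-fold. Lpl, lipoprotein lipase, held 8.78, 5.77, 9.55 and 9.14 CPM and 68.9, 71.6, 145 and 129 CPM (log2 fold change 3.63, SE 0.39, adjusted p = 7.41e-08). The cystatin gene Cst7 held 2.38, 1.34, 1.13 and 1.48 CPM and 12.3, 9.10, 22.3 and 16.7 CPM (log2 fold change 3.26, SE 0.34, adjusted p = 3.59e-08). Mice 991 and 992 were above mice 69 and 945 for both. Spp1, osteopontin, was split within the sorted group, at 10.3, 11.7, 57.9 and 55.9 CPM against 14.2, 15.5, 18.95 and 12.8 CPM in Cell-Input (log2 fold change 1.14, SE 0.58, adjusted p = 0.0818). Its call was lost on leaving out mouse 991 (log2 fold change 0.74), 992, 946 or 949. Gpnmb, a transmembrane glycoprotein, fell (4.14 to 5.39 against 0.691 to 2.27 CPM, log2 fold change -1.74, adjusted p = 0.00267).

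Immediate-early genes rose in 20 of 24 cases (median 2.50). These genes respond within minutes to many stimuli, enzymatic dissociation among them, and both groups had passed through that step. Fos held 678, 898, 654 and 616 CPM in Cell-Input and 3927, 3667, 3113 and 5491 CPM in FACSAria-Input (log2 fold change 2.51, SE 0.16, adjusted p = 2.88e-11). Its partner Jun held 1030.0, 1176, 1061 and 929 CPM and 5180.4, 4902, 3905 and 6373 CPM (log2 fold change 2.28, SE 0.14, adjusted p = 1.41e-11). The stress factor Atf3 held 189.6, 228, 160.4 and 157 CPM and 1258, 1216, 780.2 and 1994 CPM (log2 fold change 2.83, SE 0.25, adjusted p = 4.00e-09). Mouse 992 was the highest and mouse 991 the lowest sorted library for all 3, while no sorted library came near the unsorted ones. Egr1 rose alike (517 to 732 against 2465 to 4803 CPM, log2 fold change 2.48, adjusted p = 5.41e-10). Nr4a2 (5.70 to 9.91 against 1.48 to 4.71 CPM, log2 fold change -1.44, adjusted p = 0.0219) and Nr4a3 (3.13 to 7.35 against 0.278 to 2.60 CPM, log2 fold change -2.35, adjusted p = 0.00663), orphan nuclear receptors, fell, although their relative Nr4a1 rose (60.9 to 122 against 244 to 919 CPM, log2 fold change 2.59, adjusted p = 9.97e-06). The summed level of the list was 3.93 to 6.93 times the Cell-Input mean, against 4.82 to 5.21 times for the homeostatic genes, and whether the rise differs from that of microglial genes in general was not tested.

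Of 22 cytokine and chemokine genes, 17 rose and 3 fell (median 2.48). Il1b held 17.1, 17.7, 6.27 and 14.2 CPM and 93.7, 138, 89.99 and 158 CPM (log2 fold change 3.12, SE 0.42, adjusted p = 1.47e-06), Tnf held 34.9, 15.5, 12.8 and 13.3 CPM and 129, 99.5, 75.9 and 178 CPM (log2 fold change 2.66, SE 0.39, adjusted p = 3.91e-06), and the chemokine gene Ccl3 held 54.1, 68.5, 52.1 and 52.5 CPM and 278, 295, 263 and 546 CPM (log2 fold change 2.60, SE 0.28, adjusted p = 8.41e-08). The groups were separate for each, and mouse 992 was the highest sorted library. Ccl4 followed the same pattern (28.7 to 44.9 against 198 to 468 CPM, log2 fold change 2.99, adjusted p = 1.66e-07). The 3 genes that fell are products of other brain cells: Cx3cl1, the neuronal ligand of Cx3cr1 (61.5 to 90.5 against 0.691 to 6.61 CPM, log2 fold change -4.93, adjusted p = 6.86e-08), Il34, a neuronal ligand of Csf1r (10.3 to 10.9 against 0.124 to 0.944 CPM, log2 fold change -4.53, adjusted p = 1.05e-05), and Cxcl12 of vascular and glial cells (157 to 281 against 0.867 to 26.7 CPM, log2 fold change -4.17, adjusted p = 1.62e-06). Without mouse 991 these 3 stood at -6.33, -5.22 and -4.90.

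Of 15 heat shock and chaperone genes, 2 were called higher, 5 lower and 8 not (median -0.56), shares close to the 17.6% and 33.4% over all genes. Hspa1a, an inducible Hsp70, held 55.97, 28.4, 20.3 and 14.9 CPM and 95.5, 50.6, 62.3 and 136 CPM (log2 fold change 1.52, SE 0.63, adjusted p = 0.0335). Its groups overlapped through mouse 946, and it was not called without mouse 992. Its neighbour Hspa1b was as spread (34.4 to 159 against 117 to 270.3 CPM, log2 fold change 1.18, adjusted p = 0.109) and passed only on leaving out mouse 946 or 945 among the leave-one-out fits. The 2 genes are close copies, so reads may be divided between them. Dnajb1, an Hsp40, rose (62.9 to 121 against 133 to 309 CPM, log2 fold change 1.39, adjusted p = 3.73e-04). Hsp90aa1 fell (756 to 1042 against 178 to 274 CPM, log2 fold change -1.79, SE 0.16, adjusted p = 5.06e-09), and Hspb1, a small heat shock protein of astrocytes and vessels, fell further (85.01 to 111 against 3.56 to 10.01 CPM, log2 fold change -4.12, SE 0.30, adjusted p = 2.20e-10).

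Interferon-stimulated genes showed no common direction, with 4 of 18 higher, 3 lower and 11 not called, against 17.6% and 33.4% of all genes. Their median of 0.04 turned to -0.19 with size factors, which called 2 higher and 4 lower, and limma called 2 higher and 6 lower. Ifitm3 (43.7 to 58.7 against 15.5 to 36.5 CPM, log2 fold change -1.25, adjusted p = 3.64e-04), Ifit1 (9.77 to 14.1 against 2.77 to 5.57 CPM, log2 fold change -1.61, adjusted p = 6.35e-04) and Rsad2 (18.9 to 44.4 against 2.37 to 9.41 CPM, log2 fold change -2.36, adjusted p = 1.49e-04), antiviral effectors, fell. Ifit3 moved by less than 2-fold (27.7 to 38.5 against 13.6 to 22.6 CPM, log2 fold change -0.84, adjusted p = 0.0309) and passed as lower with size factors (-1.06). Irf7 overlapped (10.4 to 17.2 against 5.83 to 15.7 CPM, log2 fold change -0.36, adjusted p = 0.353). The 4 that rose were Mx1, Bst2, Oas1a and Irf9.

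Cholesterol genes parted by role. Of 17, the 2 efflux transporters Abca1 (183 to 233 against 631 to 818 CPM, log2 fold change 1.81, SE 0.16, adjusted p = 3.34e-09) and Abcg1 (77.9 to 119 against 227 to 286 CPM, log2 fold change 1.32, SE 0.15, adjusted p = 1.80e-07) rose and 14 fell, most of them synthesis enzymes (median -2.03). Hmgcs1, which makes HMG-CoA, held 279.8, 271, 279 and 273 CPM and 52.1, 51.6, 58.6 and 53.4 CPM (log2 fold change -2.35, SE 0.08, adjusted p = 1.27e-14). Both groups were tight and far apart for this enzyme. The esterifying enzyme Soat1 was not called (log2 fold change 0.73).

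Of 76 cytosolic ribosomal protein genes, 75 were not called (median 0.44) and 1, Rpl10a, rose (144 to 162 against 341 to 375 CPM, log2 fold change 1.24, adjusted p = 2.45e-11). With limma on the deposited log2 values, and with at least 10 counts in every sample, 0 of the 76 were called, so Rpl10a lost its call. The NuTRAP allele expresses an eGFP fusion of the ribosomal protein L10a, and whether its reads were counted as Rpl10a was not tested. Among 78 nuclear-encoded respiratory chain genes, 45 fell, 32 were not called and Cox6a2, a muscle-type subunit of low count, rose (0.257 to 1.09 against 1.24 to 2.08 CPM, log2 fold change 1.16, adjusted p = 0.0217), with a list median of -1.07 against -0.07 over all genes. Cox6a2 was not called without mouse 948. The proliferation markers Mki67 (4.37 to 8.16 against 4.91 to 11.6 CPM, log2 fold change 0.36, adjusted p = 0.442) and Top2a (7.29 to 11.5 against 10.5 to 11.4 CPM, log2 fold change 0.22, adjusted p = 0.455) overlapped between groups. Of 12 cell cycle genes, the replication genes Mcm2, Mcm5 and Tyms rose, Rrm2 (5.00 to 6.27 against 1.76 to 4.21 CPM, log2 fold change -1.15, adjusted p = 0.0180) and Stmn1 (273 to 360.3 against 27.5 to 32.6 CPM, log2 fold change -3.47, adjusted p = 2.09e-13) fell and 7, Pcna among them (0.53), were not called. Over all genes 17.6% were higher and 33.4% lower, and limma on the deposited log2 values called 1 cell cycle gene higher and 2 lower. Stmn1 is a tubulin-binding protein also abundant in neurons.

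Of 8 nuclear long noncoding RNAs, 1 rose, 4 fell and 3 were not called (median -1.45), against 17.6% higher and 33.4% lower over all genes. The widely used Malat1 (168 to 237 against 202 to 283 CPM, log2 fold change 0.31, adjusted p = 0.727) and Neat1 (246 to 318 against 325 to 517 CPM, log2 fold change 0.53, adjusted p = 0.137) were not called. The neuronal Meg3 (49 to 68.6 against 2.78 to 8.05 CPM, log2 fold change -3.44, adjusted p = 5.08e-04) and Miat (11.4 to 12.4 against 0 to 0.944 CPM, log2 fold change -5.18, adjusted p = 8.80e-05) fell, together with Rian and Snhg11. Without mouse 991, whose 3 fellow libraries had 3 counts or fewer of it, Miat was at least 37.9-fold lower. Pvt1 was the one that rose (4.02 to 7.17 against 8.79 to 15.9 CPM, log2 fold change 1.29, adjusted p = 9.95e-05).

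The 10 genes with the largest rises, among those of at least 50 CPM and without overlap, were Alb, Car3, Cd180, Lpl, Cd83, Gpr84, I830077J02Rik, Slc15a3, P2ry13 and Il1a. Gpr84 (chr15:103308235-103310438) held 15.9, 13.8, 19.4 and 20.7 CPM in Cell-Input and 178, 200.2, 174 and 164 CPM in FACSAria-Input (log2 fold change 3.36, SE 0.19, adjusted p = 4.64e-12). Cd83, a surface marker of activated antigen-presenting cells, held 63.8, 60.2, 45.5 and 52.8 CPM and 538, 505, 393 and 893 CPM (log2 fold change 3.39, SE 0.30, adjusted p = 4.46e-09). Il1a held 51.6, 38.1, 29.4 and 36.8 CPM and 385, 359.6, 217 and 493 CPM (log2 fold change 3.22, SE 0.25, adjusted p = 5.33e-10). Mouse 992 was highest for Cd83 and Il1a, whereas the sorted libraries differed little in Gpr84. Slc15a3, a lysosomal peptide transporter (23.03 to 32.05 against 233 to 294 CPM, log2 fold change 3.28, adjusted p = 7.33e-13), and I830077J02Rik (4.46 to 7.89 against 45.95 to 66.3 CPM, log2 fold change 3.29, adjusted p = 8.25e-10) were separate as well. Alb and Car3 are products of liver and of fat and muscle, and are described with those genes below.

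The 10 largest falls by the same rule were those of Hapln2, Kcnn2, Paqr6, Spock3, Lrrn1, Cldn11, Shisa9, Omg, Nov and Bmpr1b. Hapln2, a link protein of the node of Ranvier, held 127, 129.6, 91.7 and 76.2 CPM in Cell-Input and 0.198, 0, 0 and 0.124 CPM in FACSAria-Input. With 3 counts or fewer in every sorted library it was at least 345-fold lower, taking 3 counts in each library as the floor. By the same floor Kcnn2, a potassium channel gene, was at least 212-fold lower, Shisa9 at least 229-fold, Paqr6 at least 190.0-fold and Bmpr1b at least 177-fold. Cldn11, the tight junction protein of myelin, held 729, 854, 588 and 492 CPM and 0.494, 0.371, 3.12 and 0.867 CPM (log2 fold change -9.06, SE 0.62, adjusted p = 8.48e-11), with mouse 991 highest of the sorted libraries (-10.20 without it). Omg, the oligodendrocyte myelin glycoprotein (119 to 158 against 0 to 0.395 CPM, log2 fold change -9.02, adjusted p = 3.30e-12), Spock3 (72.1 to 111 against 0 to 0.395 CPM, log2 fold change -9.16, adjusted p = 2.09e-12), Lrrn1 (108 to 160.4 against 0 to 0.661 CPM, log2 fold change -9.15, adjusted p = 1.30e-10) and Nov (127 to 264 against 0 to 0.755 CPM, log2 fold change -9.01, adjusted p = 5.79e-12) stood at under 1 CPM in all sorted libraries. Without mouse 991, Nov stood at -9.76 and Lrrn1 was at least 425-fold lower.

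All 16 astrocyte markers fell (median -7.06), and their summed level in FACSAria-Input was 1.25% to 2.45% of the Cell-Input mean. Slc1a2, the main glutamate transporter, held 2553, 3715, 2943 and 3353 CPM in Cell-Input and 14.8, 12.4, 43.1 and 12.8 CPM in FACSAria-Input (log2 fold change -7.23, SE 0.49, adjusted p = 8.65e-11). Aqp4, the water channel of astrocyte endfeet, held 369, 513, 559 and 557 CPM and 0.790, 1.30, 8.31 and 0.248 CPM (log2 fold change -7.49, SE 0.61, adjusted p = 1.23e-09). The gap junction gene Gja1 held 722, 1006, 1106 and 986 CPM and 4.35, 1.86, 14.7 and 3.47 CPM (log2 fold change -7.27, SE 0.57, adjusted p = 5.98e-10). Mouse 991 held the most of each among sorted libraries, and without it the log2 fold changes were -7.88, -9.23 and -8.22. Aldoc, a glycolytic isoenzyme, fell too (1265 to 1809 against 6.68 to 18.9 CPM, log2 fold change -7.16, adjusted p = 6.92e-12).

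Of 15 oligodendrocyte markers, 14 fell and Trf was not called (median -8.08). All 15 exceeded the count filter in every Cell-Input library and 5 in every FACSAria-Input library, so the count is a description. With at least 10 counts required in every sample 5 remained, 4 of them called lower. Mog, on the outer face of myelin, held 245, 295, 189.6 and 184 CPM and 0.395, 0.371, 1.51 and 0.248 CPM (log2 fold change -8.43, SE 0.56, adjusted p = 2.02e-10). Mbp, whose RNA travels out into myelin, held 3262, 4892, 3026 and 5822 CPM and 81.5, 83.2, 210.4 and 87.4 CPM (log2 fold change -5.20, SE 0.37, adjusted p = 1.41e-10). Without mouse 991 the Mog value was -9.33. The Mbp level in the sorted libraries stayed well above 0, with mouse 991 again the highest. Trf, the transferrin gene, held 1826 to 2446 against 2313 to 2491 CPM (log2 fold change 0.16, adjusted p = 0.317). It made up most of the summed level of the list in FACSAria-Input, which was 15.02% to 16.5% of the Cell-Input mean.

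All 11 oligodendrocyte progenitor markers fell, with a median of -6.01, or -5.40 with 3 members set at their bound. All 11 exceeded the count filter in every Cell-Input library and only 1 in every FACSAria-Input library. They thus entered through the unsorted group, and the count is a description. Olig2, a lineage factor, held 87.5, 132, 92.4 and 92.9 CPM and 0.296, 0.464, 0.755 and 0.495 CPM (log2 fold change -7.62, SE 0.40, adjusted p = 2.52e-12). Ptprz1, a phosphatase shared with astrocytes (392 to 473 against 0.650 to 5.00 CPM, log2 fold change -7.51, adjusted p = 3.39e-11), and the growth factor receptor Pdgfra (25.1 to 38.3 against 0.395 to 2.04 CPM, log2 fold change -4.81, adjusted p = 8.07e-07) fell as well. Cspg4, or NG2, which pericytes also carry, fell least (23.4 to 30.6 against 0.186 to 5.29 CPM, log2 fold change -3.46, adjusted p = 2.85e-05), with mouse 991 highest. Without that library the values were -4.30 for Cspg4 and -8.19 for Ptprz1.

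All 18 neuronal markers fell, with a median of -5.48, or -5.13 with 1 member at its bound. All 18 exceeded the count filter in every Cell-Input library and 8 in every FACSAria-Input library, so the count is a description. With at least 10 counts required in every sample 6 remained, all called lower. Snap25, a synaptic SNARE protein, held 436, 338, 150.4 and 230.3 CPM in Cell-Input and 4.44, 3.62, 2.55 and 2.97 CPM in FACSAria-Input (log2 fold change -6.40, SE 0.36, adjusted p = 6.05e-12). Syt1, the synaptic calcium sensor, held 162, 96.7, 75.2 and 71.7 CPM and 0.395, 0.557, 1.13 and 0.495 CPM (log2 fold change -7.25, SE 0.44, adjusted p = 1.48e-11). Mouse 991 was the lowest sorted library for Snap25 and the highest for Syt1. The excitatory marker Slc17a7 (50.1 to 151 against 0.395 to 2.08 CPM, log2 fold change -6.60, adjusted p = 5.59e-11) and the inhibitory marker Gad1 (23.9 to 98.5 against 2.72 to 5.48 CPM, log2 fold change -3.75, adjusted p = 3.50e-09) both fell. Mouse 946 had the highest unsorted level of Snap25, Syt1, Slc17a7 and Gad1.

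Vascular markers fell with a larger spread within FACSAria-Input. Of 20 endothelial markers, 19 fell (median -3.97, -4.71 without mouse 991). Cldn5, the tight junction claudin of the blood-brain barrier, held 180.0, 232, 383 and 285 CPM and 3.95, 17.6, 44.2 and 1.61 CPM (log2 fold change -3.98, SE 0.62, adjusted p = 9.91e-06). Flt1, a VEGF receptor, held 262, 423, 475 and 362 CPM and 7.41, 19.3, 44.6 and 4.83 CPM (log2 fold change -4.31, SE 0.50, adjusted p = 2.13e-07). Mice 945 and 991 stood well above mice 69 and 992 for both, and without mouse 991 the values were -5.08 and -5.15. Pltp, a phospholipid transfer protein, fell (419 to 677 against 21.04 to 84.2 CPM, log2 fold change -3.63, adjusted p = 9.46e-08). Pecam1, which leukocytes and platelets also carry, was not called (116 to 204 against 77.2 to 93.6 CPM, log2 fold change -0.97, SE 0.16, adjusted p = 2.02e-05), and passed with size factors (-1.20) and on leaving out mouse 946 or 69.

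All 11 mural markers fell (median -4.32), among them the pericyte genes Pdgfrb (43.4 to 64.9 against 1.49 to 3.40 CPM, log2 fold change -4.32, adjusted p = 6.92e-08), Rgs5 (94.5 to 136 against 0.395 to 4.16 CPM, log2 fold change -5.52, adjusted p = 1.22e-08) and Vtn (194 to 297 against 5.20 to 16.99 CPM, log2 fold change -4.28, adjusted p = 4.79e-09). Of 9 fibroblast markers, 8 fell (median -3.49). The collagen gene Col1a2 (101 to 152 against 3.56 to 5.29 CPM, log2 fold change -4.88, adjusted p = 9.53e-09), the growth factor gene Igf2 (136 to 380.1 against 1.58 to 18.04 CPM, log2 fold change -5.62, adjusted p = 8.84e-08) and the proteoglycan gene Bgn (52.6 to 111 against 0.495 to 3.68 CPM, log2 fold change -5.18, adjusted p = 3.33e-09) fell further than Dcn, decorin (15.4 to 20.9 against 5.57 to 8.12 CPM, log2 fold change -1.44, adjusted p = 0.0112). Without mouse 991 the Igf2 value was -7.17. Lum was not called (log2 fold change -1.05).

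All 13 ependymal and choroid plexus markers fell (median -4.31), and here mouse 991 set the size of the change. All 13 exceeded the count filter in every Cell-Input library and 3 in every FACSAria-Input library, so the count is a description. Ttr, the transthyretin of choroid plexus, held 3873, 1461, 3006 and 3329.6 CPM in Cell-Input and 34.8, 10.2, 530.3 and 11.1 CPM in FACSAria-Input (log2 fold change -4.31, SE 0.96, adjusted p = 4.39e-04). Foxj1, the regulator of motile cilia, held 103, 63.7, 106 and 105 CPM and 0.0988, 0, 22.6 and 0 CPM (log2 fold change -4.02, SE 0.85, adjusted p = 2.83e-04). Ccdc153, a ciliary gene, held 44.2, 30.3, 49.3 and 47.9 CPM and 0, 0, 15.96 and 0 CPM (log2 fold change -3.39, SE 0.96, adjusted p = 0.00329). The other 3 sorted libraries had Foxj1, Ccdc153 and Tmem212 at or near 0, and Tmem212 also fell (10.99 to 21.01 against 0 to 4.16 CPM, log2 fold change -3.87, adjusted p = 6.10e-04). Summed over the list, the sorted libraries held 40.9, 15.8, 641 and 20.1 CPM against 1831 to 4986 CPM in Cell-Input. Without mouse 991, Ttr stood at -7.28, Foxj1 was at least 299.8-fold lower, Ccdc153 at least 136-fold and Tmem212 at least 52.3-fold, by the floor of 3 counts in each of the other libraries. The list median was then -8.80.

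**Figure D3:**
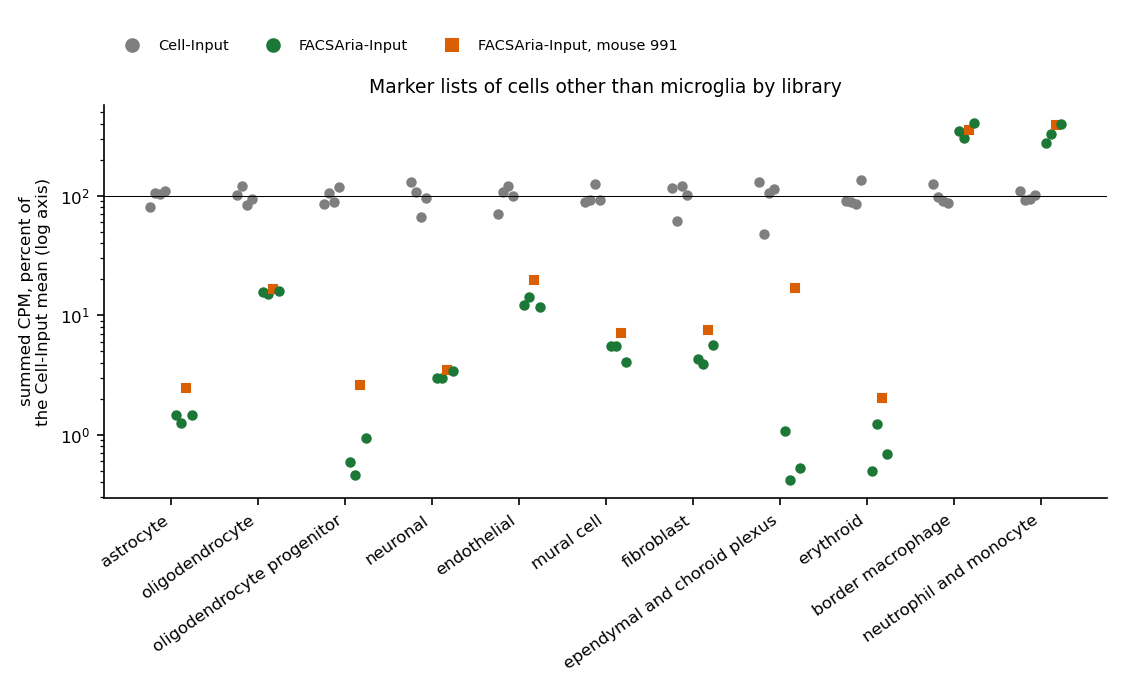
Summed CPM of each marker list in each library as a percent of the mean of Cell-Input, on a log axis. Grey points are Cell-Input, green points FACSAria-Input and orange squares FACSAria-Input of mouse 991. Astrocyte markers stood at 1.25% to 2.45% and ependymal and choroid plexus markers at 0.417% to 16.9%, the last value from mouse 991, while border macrophage and neutrophil and monocyte lists stood above 100. The neutrophil and monocyte sum was mostly Lyz2, which microglia also express, and the median log2 fold change of that list was -0.69.

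All 6 erythroid genes fell (median -6.45). Hba-a1, an alpha globin, held 2159.9, 2092, 2014 and 3089 CPM in Cell-Input and 12.4, 31.9, 56.8 and 18.7 CPM in FACSAria-Input (log2 fold change -6.28, SE 1.03, adjusted p = 1.66e-05), and Beta-s, a beta globin, moved with it (1337 to 2174 against 8.30 to 28.1 CPM, log2 fold change -6.59, adjusted p = 1.07e-05). Alas2, the erythroid haem synthase, fell (187 to 377 against 0 to 2.97 CPM, log2 fold change -7.22, adjusted p = 1.84e-07). Slc4a1, the band 3 anion exchanger, was at least 30.4-fold lower. The 2 alpha globin genes are near-identical copies, so the split of reads between them is uncertain.

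Border macrophage markers rose in 12 of 15 cases (median 1.56), by less than the homeostatic microglial genes (2.66), although no test of that difference was made. Pf4 (6.19 to 12.4 against 20.1 to 33.2 CPM, log2 fold change 1.60, adjusted p = 2.57e-05), F13a1 (28.6 to 58.5 against 78.1 to 135 CPM, log2 fold change 1.56, adjusted p = 1.96e-04), Ms4a7 (2.73 to 5.90 against 11.5 to 14.5 CPM, log2 fold change 1.89, adjusted p = 1.97e-05) and the sialoadhesin gene Siglec1 (4.68 to 11.2 against 28.8 to 87.6 CPM, log2 fold change 2.70, adjusted p = 6.12e-05) rose. Mouse 946 was the highest unsorted library for all 4, as in F13a1 with 58.5, 28.6, 29.1 and 28.8 CPM in Cell-Input against 94.03, 78.1, 121 and 135 CPM in FACSAria-Input. Cd38, an NAD-cleaving enzyme that astrocytes also use, fell (22.9 to 43.4 against 5.48 to 10.01 CPM, log2 fold change -2.30, adjusted p = 2.67e-07). Lyve1 and Clec10a were not called (log2 fold changes 0.71 and 0.95).

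Lymphocyte markers were at low counts, and 8 of 12 fell, against 33.4% of all genes, with a median of -2.30, or -1.34 with 5 at their bound. Of the 12, 11 exceeded the count filter in every Cell-Input library and 2 in every FACSAria-Input library, so the count is a description. With at least 10 counts required in every sample 2 remained, 1 called higher and 0 lower. The summed level of the list was higher in FACSAria-Input (11.8 to 25.2 against 26.8 to 29.9 CPM). Lck, a T-cell kinase (1.09 to 4.02 against 0 to 0.889 CPM, log2 fold change -2.71, adjusted p = 0.0112), and Cd79a, a B-cell receptor chain (0.789 to 2.76 against 0.395 to 0.755 CPM, log2 fold change -1.60, adjusted p = 0.0127), fell. Cd79b, the partner of Cd79a in B cells, rose from 2.70, 3.40, 3.49 and 4.49 CPM to 17.5, 20.5, 21.9 and 23.9 CPM (log2 fold change 2.57, SE 0.22, adjusted p = 2.72e-09), so the 2 chains moved in opposite directions.

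Of 16 neutrophil and monocyte markers, 3 rose, 6 fell and 7 were not called (median -0.69), shares near those over all genes (17.6% higher, 33.4% lower). Of the 16, 15 exceeded the count filter in every Cell-Input library and 4 in every FACSAria-Input library, so the count is a description. With at least 10 counts required in every sample 4 remained, 2 of them called higher and 0 lower. With limma on the deposited log2 values 2 were higher and 11 lower (median -2.43). The summed level of the list in FACSAria-Input (530 to 764 CPM) was mostly Lyz2. Lyz2, a lysozyme that microglia also express, rose (109.5 to 166 against 512 to 724 CPM, log2 fold change 2.26, SE 0.19, adjusted p = 2.21e-09), as did the monocyte receptor gene Ccr2 (3.04 to 5.86 against 8.10 to 14.6 CPM, log2 fold change 1.40, adjusted p = 5.47e-05) and, at the limit, Mmp9 (log2 fold change 1.00, adjusted p = 0.0421), whose call was lost on leaving out any of mice 948, 949, 945, 991 and 992. The neutrophil genes S100a8 (4.64, 8.99, 5.19 and 6.70 against 0.296, 6.68, 0 and 1.49 CPM, log2 fold change -1.56, SE 0.73, adjusted p = 0.0599) and S100a9 (5.21, 12.6, 6.42 and 10.9 against 0.988, 11.97, 0.0944 and 3.34 CPM, log2 fold change -1.08, SE 0.74, adjusted p = 0.190) depended on mouse 945, which held most of both. S100a8 lost its call on leaving out mouse 947, 949, 69, 991 or 992, and S100a9 gained one on leaving out mouse 945 (-2.68). The defining neutrophil gene Mpo had 3 counts or fewer in every sorted library.

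Transcripts of organs outside the brain were higher after the sort, in lists chosen after the values were seen. Of 21 hepatocyte genes, 20 were called higher. Only 5 of the 21 exceeded the count filter in every Cell-Input library, against 20 in every FACSAria-Input library, so most entered through the sorted groups and the count is a description. With at least 10 counts required in every sample 3 remained, 2 of them called (median 2.05). Alb (chr5:90460889-90476603), serum albumin, held 9.35, 4.07, 5.14 and 3.35 CPM in Cell-Input and 624, 96.1, 94.7 and 145 CPM in FACSAria-Input (log2 fold change 5.46, SE 0.89, adjusted p = 1.69e-05). Summed in CPM of the library total without TMM, the hepatocyte genes stood at 1011, 155, 166 and 237 in FACSAria-Input, at 16.9 to 26.2 in Cell-Input and at 7.87 to 26.8 in the tissue lysates of the series. Mouse 69 was far above the other sorted libraries, and without it 20 genes were still called, with a median of 4.07 in place of 5.35 (4.93 with 4 members at their bound). Of 10 adipocyte genes, 8 rose, among them Car3, a carbonic anhydrase (7.03, 1.70, 2.67 and 2.10 against 62.1, 46.3, 43.1 and 75.1 CPM, log2 fold change 4.08, SE 0.72, adjusted p = 3.85e-05), Fabp4, a fatty acid carrier (1.08 to 5.15 against 36.01 to 67.9 CPM), and Adipoq, adiponectin (0.308 to 0.753 against 10.2 to 16.2 CPM), while Plin4, a lipid droplet coat protein, fell. Their sum stood at 187 to 279 CPM in FACSAria-Input, 84.8 to 129 in Cell-Input and 26.7 to 35.3 in tissue. Of 8 skeletal muscle genes, only Tnni2 and Ckm were called higher, and Ckm lost its call with size factors, which left 1 gene. The source of these transcripts was not tested.

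**Figure D4:**
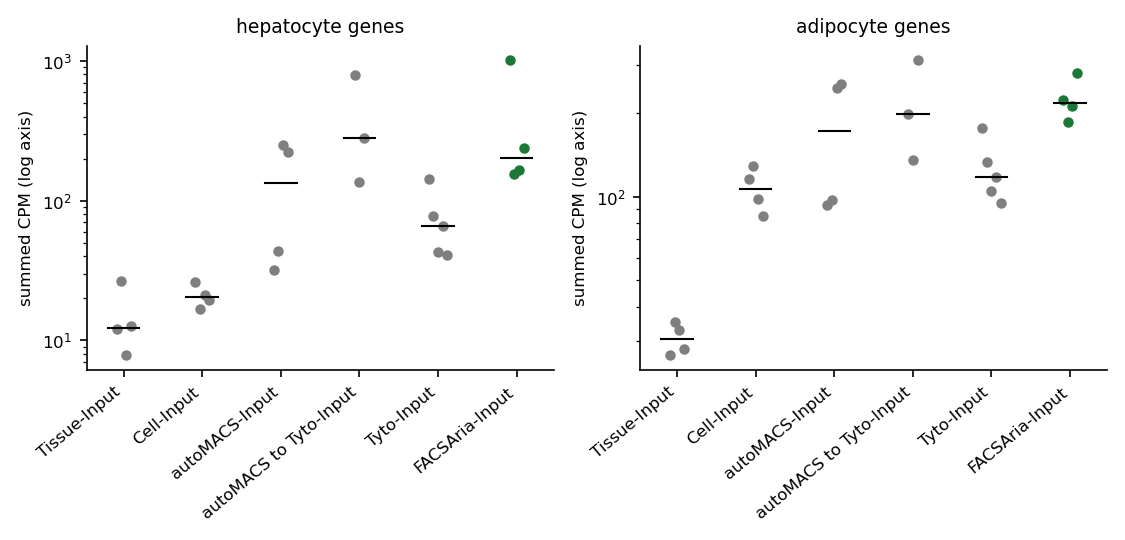
Summed CPM of 21 hepatocyte genes (left) and 10 adipocyte genes (right) in each Input library by group, on log axes, with bars at the group medians. FACSAria-Input, in green, stood at 155 to 1011 CPM for hepatocyte genes against 16.9 to 26.2 in Cell-Input, and the other sorted groups reached from 32.1 to 792.

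FACSAria-Input was also set against the equally weighted mean of the other sorted Input groups, which are 4 autoMACS, 3 autoMACS to Tyto and 5 Tyto libraries. By the study's methods, autoMACS selected with CD11b beads alone, while the Tyto sorter used the CD11b+CD45+eGFP+ gate of the FACSAria sort. The groups thus differ in gate as well as in instrument. Of 15096 genes, 47 were higher (0.311%) and 27 lower (0.179%). Mice 69, 945 and 991 also gave Tyto libraries, and mice 66, 67 and 73 each gave an autoMACS and an autoMACS to Tyto library, so the 12 libraries come from 9 mice. A fit with the mouse as a replicate block (limma) called 5 higher and 11 lower, 14 of these 16 the same way as before. Calls in both directions rested on single libraries, with 2 higher and 9 lower without mouse 991 and 0 of either without mouse 992, although 1957 genes were at an unadjusted p under 0.05 in that last fit of edgeR's test. Leaving out mouse 69 gave 69 higher and 13 lower, and leaving out mouse 945 gave 75 and 21.

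Among the calls of all libraries, neutrophil genes were lower in FACSAria-Input than in the other sorts. S100a8 held 0.296, 6.68, 0 and 1.49 CPM against 4.94 to 40.3 CPM over the other sorted libraries (log2 difference -3.23, adjusted p = 0.0519, 0.134 with the block), and S100a9 behaved alike (-3.13, adjusted p = 0.0550, 0.215 with the block). The other sorts were not alike, with S100a9 means of 67.9 CPM in autoMACS, 34.5 in autoMACS to Tyto and 21.2 in Tyto, against 4.10 in FACSAria-Input. Retnlg, Plac8 and Mmp8 were lower too, so 5 of 16 neutrophil and monocyte markers were called lower, against 0.179% of all genes. All 5 calls were lost without mouse 991 or 992, as for S100a8 (log2 difference -2.80, adjusted p = 0.110, and -3.10, adjusted p = 0.112), while each difference stayed negative. Gzma, a cytotoxic granule protease absent from the FACSAria-Input counts, was lower as well (0.0701 with the block). It was not called by edgeR's test on leaving out any 1 FACSAria-Input library (adjusted p from 0.102 to 0.144). Retnlg and Mmp8 stayed under an adjusted p of 0.1 with the block (0.0701 and 0.0830). Itgal, an integrin chain of circulating leukocytes (log2 difference -1.68, adjusted p = 0.0519, 0.133 with the block), Cd209a, of dendritic cells (-1.55, adjusted p = 0.0612, 0.151 with the block), and Cfp (-1.10, adjusted p = 0.0933, 0.133 with the block) were lower. The genes called higher included 3 of 13 ependymal and choroid plexus markers, against 0.311% of all genes, which were Ccdc153 (log2 difference 4.90, adjusted p = 0.0550), Tmem212 (4.64, adjusted p = 0.0773) and Foxj1 (3.54, adjusted p = 0.0910). They were carried by mouse 991, without which Ccdc153 and Foxj1 stood below the other sorts and none was called, and with the block their adjusted p was 0.733, 0.517 and 0.971. Also called higher were the endothelial Slco1a4 (4.54, 13.8, 25.7 and 5.20 CPM against 0 to 10.9 CPM, log2 difference 2.21, adjusted p = 0.0519, 0.134 with the block) and Ptprb (1.77, adjusted p = 0.0967, 0.282 with the block), and Nnat (1.63, adjusted p = 0.0967, 0.306 with the block). Mouse 991 held the most of all 3, and Slco1a4 was not called without it (1.57, adjusted p = 0.170). None of the gate genes, lineage factors, homeostatic genes, immediate-early genes or Toll-like receptors was called in this comparison.

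The same contrast was made in TRAP RNA from the same 8 mice, in which the unsorted sample had already been enriched for reporter-tagged ribosomes. Of 13610 genes, 234 were higher (1.72%) and 2579 lower (18.9%) in FACSAria-TRAP. Of the genes called higher in Input, 2602 were tested in TRAP and 176 were higher there, and of those called lower in Input, 3818 were tested and 2532 were lower. Medians of the microglial lists were small in TRAP. They were 0.31 for homeostatic genes (Input 2.66), 0.30 for lineage factors (Input 2.57) and 0.44 for immediate-early genes (Input 2.50). Of 20 homeostatic genes 0 were called, and of 13 lineage factors 0 were higher and 1 lower. Of 24 immediate-early genes 3 were higher and 0 lower, and of 15 disease-associated genes 3 and 0. Of 22 cytokine and chemokine genes 2 were higher and 3 lower. Il1b (log2 fold change 1.75, edgeR adjusted p = 6.69e-04) and Lpl (1.79, edgeR adjusted p = 1.56e-04) were among those higher. Itgam stood at 2028 ± 107 CPM in Cell-TRAP and 3099 ± 227 CPM in FACSAria-TRAP (log2 fold change 0.61) and was not called. Markers of other cells still fell, with medians of -6.79 for astrocytes, -5.27 for oligodendrocytes, -4.61 for neurons and -4.38 for endothelium. Aqp4 stood at 61.8 ± 4.02 CPM in Cell-TRAP and 0.164 ± 0.0835 CPM in FACSAria-TRAP (log2 fold change -8.50). Border macrophage markers had a median of -0.71 in TRAP and 1.56 in Input, so the sign of the list differed between fractions. In TRAP 0 of its 15 members were higher and 4 lower, which were Lyve1 (-1.67), Cbr2 (-1.27), Cd209f (-1.05) and Cd38 (-1.05). Pf4 (-0.85), F13a1 (-0.75) and Ms4a7 (-0.71) had negative values in TRAP that were not called. Of all genes, 13 were called higher in Input and lower in TRAP, 7 of which were Tfec, Cd209f, Cd209g, Cbr2, Ccl8, Clec4n and Clec4a1, and 4 were called the opposite way (Glb1l2, AA388235, Cdkl4 and 2010204K13Rik). These genes were picked after their values were seen, and the difference between the fractions was not tested. All 19 hepatocyte genes tested in TRAP were higher there, against 1.72% of all genes. That list was chosen after the values were seen, so this count is a description too.

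**Figure D5:**
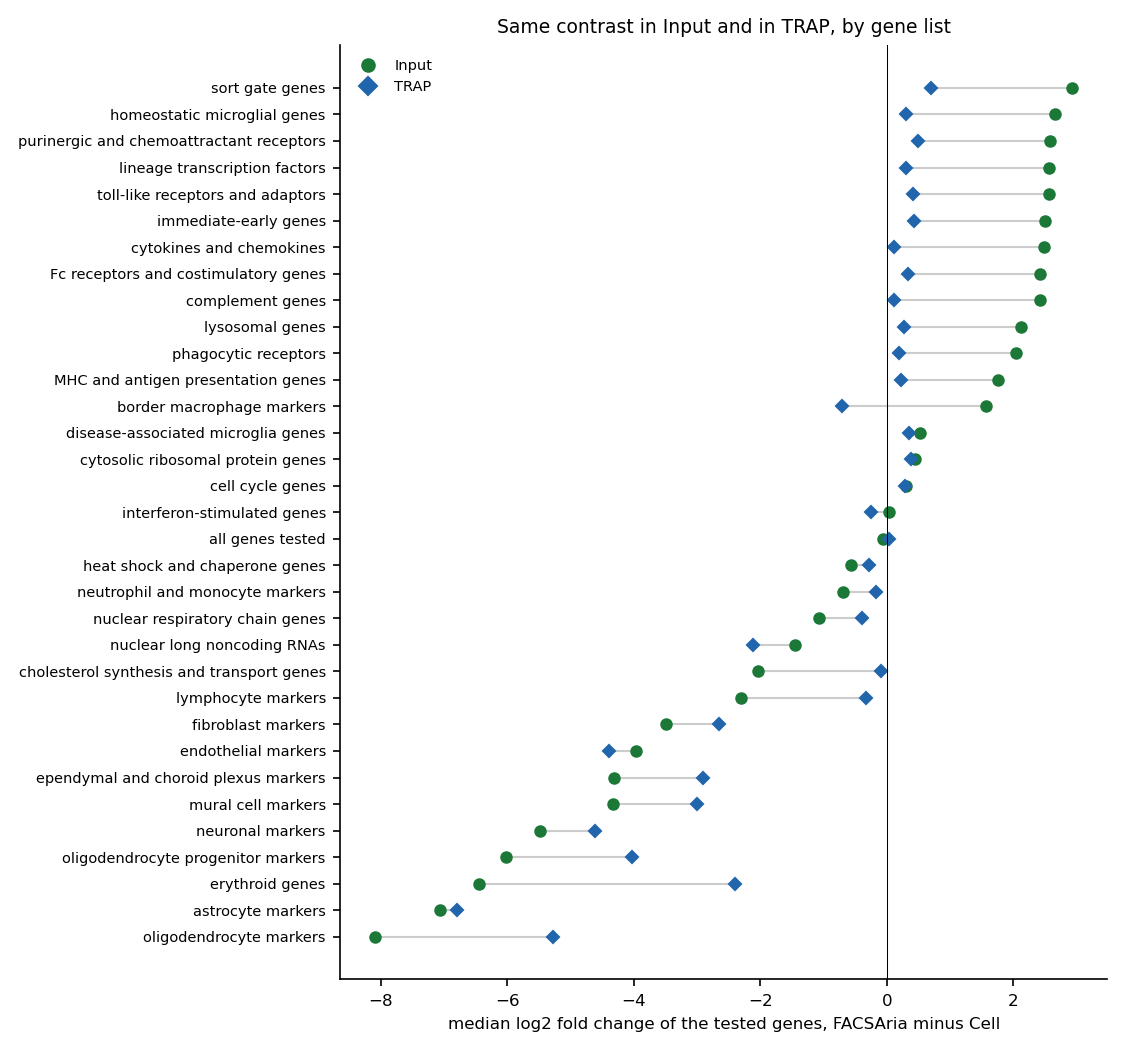
Median log2 fold change of the tested genes of each list, FACSAria minus Cell, in Input (green circles) and in TRAP (blue diamonds), joined by a line. The lists from gate genes down to MHC genes lie at 1.76 to 2.93 in Input and at 0.11 to 0.71 in TRAP, markers of astrocytes and neurons are strongly negative in both, and border macrophage markers lie at 1.56 in Input and -0.71 in TRAP.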

How the data were processed

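Libraries were stranded poly(A) RNA-seq from mouse brain. Per the authors' methods, reads were aligned to mm10 in Strand NGS, duplicates were removed and values were quantified per gene; the submitters' processing notes also name DESeq2. The authors deposited 1 table with expected counts per gene, which need not be whole, and the log2 values they normalized from them. The table lists 15919 genes in 48 libraries, and 23 symbols that a spreadsheet had turned into dates were restored. It held 0 columns of other series, and no column of the authors' own comparisons was used.

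The expected counts were rounded and tested with edgeR 4.0.16 (quasi-likelihood, TMM, the 20 sorted and Cell Input libraries in 1 fit, R 4.3.3), after a filter of more than 5 counts in all libraries of at least 1 group. Calls needed a Benjamini-Hochberg adjusted p under 0.1 and a fold over 2. The test was checked on simulated counts in which few genes changed. That check does not cover the scaling of a contrast in which as many genes changed as here. Alternatives used limma 3.58.1 on the deposited log2 values, DESeq2 1.42.0, other filters, only the 8 libraries, sex as a term and each library left out. A filter after rounding, which changes the TMM reference library, and the lists without mouse 69 were added after seeing the data.

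Within each group the libraries come from different mice, and FACSAria-Input and Cell-Input share none. The Input fit pools all sorted groups, and some mice gave libraries to different sort groups. The p-values of that fit treat such libraries as independent, so they do not measure the spread between mice alone. This bears most directly on the comparison with the other sorts, for which the fit with the mouse as a replicate block is given. Counts carry no molecular identifiers. Gene names are those of the table. Promoters are from RefSeq (GRCm38.p6). Members and lists were chosen with earlier results of these data known, and the hepatocyte, adipocyte and muscle lists after the values were seen. Named genes were the lead genes of each list, the 10 largest called changes in each direction (mean of at least 50 CPM in the higher group, no overlap), up to 5 in each direction against the other sorts (mean of at least 10 CPM), and up to 4 members per list called against its direction. Some genes these rules pick are not reported here by name, though they count in their lists. List members that the table does not list by the symbols used, Acta2 and Cd3e among them, and members under the filter are not analysed here.

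The mouse numbers pair FACSAria with Tyto libraries because they came from the same animal. Deviations from the group means correlated at 0.04, 0.22 and 0.17 for mice 69, 945 and 991, and the block had a consensus correlation of 0.18.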

Additional observations from a re-analysis of the deposited data

Results flagged for a closer look

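Values of 1 library stood apart from the other 3 of its group in 48 of 372 groups of 4 libraries (9 of 70 for list sums), by Dixon's ratio of the gap between the extreme library and its nearest neighbour to the whole range. Chance flags about 1 in 20 such groups. Genes of 1 cell type move together within a library, so these flags are not independent of each other.

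The FACSAria-Input library of mouse 991 held 20 of them. It was the highest sorted library for the summed ependymal and choroid plexus markers (ratio 0.960) and for Foxj1 (0.996), Ccdc153 (1.00), Tmem212 (0.955) and Ttr (0.953). It was also the highest for the glial genes Slc1a2 (0.922), Aqp4 (0.870), Mog (0.883) and Mbp (0.954), for Kcnn2 (1.00), Tyro3 (0.839), Cx3cl1 (0.913), Igf2 (0.923), Hspb1 (0.961), Ifitm3 (0.888) and Top2a (0.914). It was the lowest for the summed lineage transcription factors (0.836) and homeostatic microglial genes (0.853), and for Tlr3 (0.917) and Gpr34 (0.933). Markers of other brain cells and microglial genes thus moved in opposite directions in this library, and their part in each result was not tested beyond the values without it.

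Among the other sorted libraries, mouse 69 was the highest for the summed hepatocyte genes (0.898), Alb (0.905) and Fcgr3 (0.851). Mouse 945 was the highest for P2ry6 (0.845) and the lowest for Hsp90aa1 (0.850), and mouse 992 the highest for Ccl3 (0.887).

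In Cell-Input, mouse 946 was the lowest for the summed homeostatic (0.864), complement (0.916) and lysosomal genes (0.848) and for Sfpi1 (0.830), C1qa (0.949), Trem2 (0.880) and Ptprz1 (0.865), and the highest for F13a1 (0.983), Ms4a7 (0.921) and Tnf (0.877). Mouse 949 was the highest for the summed erythroid genes (0.889), Beta-s (0.920), Hba-a1 (0.864), Slc4a1 (0.963) and Alas2 (0.913) and the lowest for P2rx7 (0.835). Mouse 947 was the lowest for Foxj1 (0.939) and Dcn (0.895) and the highest for Ccl3 (0.880) and Olig2 (0.879). Mouse 948 was the highest for the summed mural cell markers (0.902) and for Hspb1 (0.926).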

How the results depend on the processing

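The calls of FACSAria-Input against Cell-Input ranged over the leave-one-out fits from 2626 to 2953 higher and from 4855 to 5031 lower, and moved by over 1.5 times only with at least 10 counts required in every sample (1606 higher, 1825 lower of 10308 genes). That filter removes the genes that fall to few counts after the sort. Mural, erythroid and lymphocyte members also exceeded the main filter more often in every Cell-Input library (11, 6 and 11) than in every FACSAria-Input library (6, 3 and 2). Other settings gave 2045 higher and 5439 lower with size factors, 2709 and 5340 with no filter, 2052 and 5335 with the DESeq2 Wald test, 1875 and 5735 with limma on the deposited log2 values, 2946 and 4908 with the filter after rounding, and 2568 and 5095 with only the 8 libraries, with or without sex as a term. No paired analysis was possible for this contrast because no mouse gave both a FACSAria and a Cell library.

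Against the other sorts, the 47 higher and 27 lower calls became 3 and 10 with at least 10 counts in every sample, 125 and 66 with the Wald test, and 5 and 11 with the mouse as a replicate block. Leaving out each FACSAria-Input library in turn gave 0 to 75 higher and 0 to 21 lower calls. The value of 0 came without mouse 992, and without mouse 991 only 5 calls were shared with the fit of all libraries. In TRAP, the 234 higher and 2579 lower calls became 60 and 440 under the stricter filter and ranged from 185 to 249 and from 2531 to 2722 on leaving out 1 library.

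List medians kept their size in 549 values, moved in 81 and changed sign in 9. The sign of interferon-stimulated genes changed with size factors (-0.19), at least 10 counts in every sample (-0.26), the Wald test (-0.19), limma (-0.31) and without mouse 945, with a range of -0.10 to 0.16 on leaving out 1 library. With at least 10 counts in every sample the medians of lymphocyte markers (1.31), neutrophil and monocyte markers (0.91) and nuclear long noncoding RNAs (0.12) became positive, over the few members left, and with limma that of cell cycle genes was -0.047. No named gene that was called in the main fit changed sign, and sign changes of named genes that were not called were not counted. Of the named genes, 8 lost their call in at least 1 setting (Abcg1, Cox6a2, H2-K1, Hspa1a, Mmp9, Pvt1, S100a8 and Spp1) and 4 gained one (Hspa1b, Ifit3, Pecam1 and S100a9). Genes described outside the naming rules, such as Rpl10a, are not in these counts. Depth limits the lowest genes, since 922 of the lower calls rest on 3 counts or fewer in each sorted library. The cause of these changes was not tested.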
